A study of Mus musculus with 9 samples.

Results

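The genes described here are 35 components of the focal adhesion that act downstream of integrins, taken by symbol from a fixed list out of the 49671 genes in each deposited count table. All 35 were found through GENCODE M21, all 35 passed the filter on low counts in every comparison, and each reached 1 CPM, a count scaled for the depth of its library, in at least 1 of the 4 groups. RNA was sequenced in bulk from the mouse pancreatic cancer line KPCWT (WT) and from KPC49bKO (KO), in which CD49b was knocked out. CD49b is the integrin alpha 2 chain encoded by Itga2, which pairs with the beta 1 chain as a collagen receptor. Both lines were grown in DMEM with serum and harvested before confluence (2 WT and 2 KO libraries), or placed under the skin of syngeneic C57BL/6 mice (3 WT and 2 KO tumours). The tumours were taken apart with enzymes before RNA extraction, and no age or time of harvest is stated in the sources used here. Each genotype is 1 line, so every KO value below is a difference between these lines, and what is due to CD49b cannot be told apart from other differences between them. Tumour libraries also hold host cells, and the setting (culture or tumour) is the same as the batch tag of the labels, so the knockout was compared within each setting.

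Focal adhesions are the protein plaques that tie clustered integrins to the actin cytoskeleton. Talins and kindlins bind the integrin beta tail and switch the receptor on, the complex of ILK, PINCH and parvin and the tensins carry the link to actin, and FAK with Src-family kinases phosphorylates scaffolds such as paxillin and p130Cas. In carcinoma cells these proteins serve adhesion to matrix, migration and survival signals from collagen and fibronectin.

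Total counts per library ran from 16032912 to 21247023. The targeted gene Itga2 had 168 and 135 CPM in WT and 96.5 and 104 CPM in KO cultures, and 119, 144 and 137 CPM in WT and 44.5 and 64.0 CPM in KO tumours. It fell in KO in both settings (log2 fold change -0.64, SE 0.17, edgeR adjusted p = 0.0135 in culture, and -1.32, SE 0.18, edgeR adjusted p = 0.00602 in tumours), and transcript remained in each KO library. The 8 markers of epithelial pancreatic cancer cells summed to 11037 to 12360 CPM in the cultures, to 6387, 6034 and 5115 CPM in WT tumours and to 10819 and 8335 CPM in KO tumours, so both KO tumours lay above every WT tumour. Epcam had 3.54 and 3.46 CPM in WT cultures and 0 and 0.0695 CPM in KO cultures. In tumours Epcam (2203, 3113 and 1574 counts in WT, 587 and 758 in KO) and Sox9 (3145, 3497 and 2523, and 522 and 720) went against the sum and were lower in KO. In culture 12 leukocyte markers summed to 12.1 to 12.6 CPM, with Ptprc the largest part in KO cultures (8.51 and 10.1 CPM), and 9 endothelial markers to 11.6 to 21.8 CPM, of which Egfl7 made up at least 90.4%. Lyz2, Itgam, Cd3e, Vwf and Emcn were at 0 CPM in all 4 cultures. In tumours the leukocyte markers summed to 208, 235 and 309 CPM in WT and to 233 and 369 CPM in KO tumours, the 9 endothelial markers to 114, 92.1 and 223 CPM and to 53.7 and 106 CPM. The 10 fibroblast and pericyte markers summed to 1167, 810 and 2202 CPM in WT tumours and to 355 and 499 CPM in KO tumours, and Col1a1 and Col3a1 made up 70.2% to 92.9% of these sums. The other 8 of these markers were separated after their values were seen. They summed to 111, 86.8 and 157 CPM in WT and to 106 and 91.9 CPM in KO tumours, which overlapped. The overlap depends on Rgs5, with 30.3, 23.5 and 41.6 CPM in WT and 64.9 and 30.2 CPM in KO tumours. In bulk samples fewer cells of a type and less RNA per cell cannot be told apart. By their counts WT tumours 1 and 2 were closer to each other than any other replicate pair, with a chi-square per gene of 6.00 against 23.0 to 39.2. Whether they are independent tumours cannot be told from the counts, and every tumour p-value below counts them as 2 replicates.

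Per kilobase of exon, filamin A (Flna), the actin crosslinker, had the highest level of the 35 genes in all 4 groups, with 104 and 126 CPM per kb in WT and KO cultures and 118 and 104 CPM per kb in WT and KO tumours. The actin polymerisation factor Vasp came next in every group, at 86.6, 119, 73.9 and 94.4 CPM per kb. Fermt3, Parvg and Tln2 were among the 5 lowest in every group. In culture Fermt3 had only 18 counts in WT and 16 in KO, and Parvg 22 and 9, so their culture values carry little precision.

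In culture, 9 of the 35 genes passed the test (25.7%), and 25.5% of the 13573 genes tested did, so the share was that of all genes. Parva, Fermt1 and Cav1 rose in KO cells (3 genes, against 9.27% of all genes), and Parvb, Fermt2, Fyn, Tns1, Tns2 and Tns4 fell (6 genes, against 16.2%). For 19 of the 35 genes, or 54.3%, the KO cultures lay wholly on one side of the WT cultures, against 62.0% of all genes tested. The median log2 fold change of the 35 was -0.01, and that of all genes tested was -0.0003. In tumours again 9 of 35 passed (25.7%), against 19.7% of the 16257 genes tested. Lims2 rose (1 gene, against 8.78% of all genes), and Parvb, Fermt2, Tln2, Git1, Tns1, Tns2, Tns3 and Tns4 fell (8 genes, against 10.9%). Libraries did not overlap for 24 genes, or 68.6%, against 53.7% of all genes tested, and the median was -0.08 against -0.01 for all genes. The genes that fell in both settings were Parvb, Fermt2, Tns1, Tns2 and Tns4, that is 5 of 35 or 14.3%, while 5.69% of the 13147 genes tested in both settings fell in both. No member rose in both, against 3.26% of those genes.

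**Figure D1:**
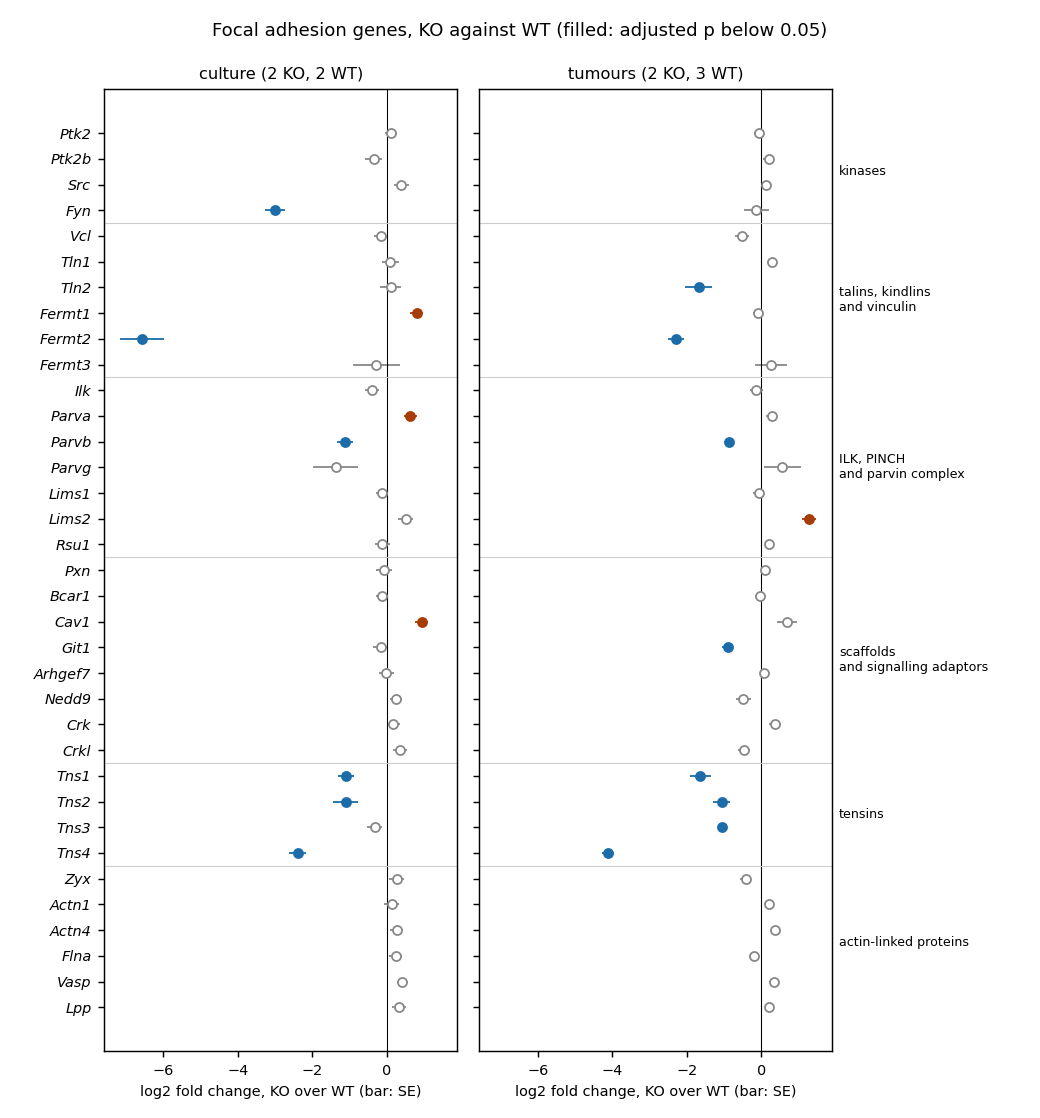
Log2 fold change of KO over WT (horizontal axis, bars are the SE) for the 35 genes in culture (left, 2 KO and 2 WT libraries) and in tumours (right, 2 KO and 3 WT libraries), grouped by role. Filled points have an edgeR adjusted p below 0.05. Fermt2 in culture rests on 2 KO counts. The tensins lie to the left of 0 in both panels, while most kinases, scaffolds and actin-linked proteins lie near 0.

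The tensins, which bind integrin beta tails and phosphotyrosine proteins and link mature adhesions to actin, were the group with the most members called. Tns4, the short tensin without an actin-binding region (chromosome 11, 99065678 to 99089306), had 69.0 and 60.0 CPM in WT cultures and 15.8 and 9.24 CPM in KO cultures. In WT tumours it had 53.0, 52.4 and 47.9 CPM and in KO tumours 2.69 and 3.24 CPM. Every KO library was far below every WT library, and the KO tumours were lower still than the KO cultures. Tns4 fell 5.27-fold in culture (log2 fold change -2.40, SE 0.24, edgeR adjusted p = 1.36e-05) and 17.4-fold in tumours (-4.12, SE 0.16, edgeR adjusted p = 0.000401).

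Tns1, a large tensin of fibrillar adhesions (chromosome 1, 73910231 to 74124449), had 45.6 and 32.6 CPM in WT cultures and 21.2 and 16.2 CPM in KO cultures. The WT tumours had 229, 213 and 163 CPM and the KO tumours 46.6 and 85.0 CPM. The groups did not overlap in either setting, and the WT tumours were the highest of all. The log2 fold change was -1.11 in culture (SE 0.22, edgeR adjusted p = 0.00249) and -1.64 in tumours (SE 0.28, edgeR adjusted p = 0.0115).

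Tns2 (chromosome 15, 102100413 to 102116401) was low in culture, with 5.05 and 4.24 CPM in WT and 2.72 and 1.67 CPM in KO. In tumours it had 60.9, 52.6 and 37.6 CPM in WT and 25.4 and 23.2 CPM in KO. The KO libraries were again below all WT libraries, with log2 fold changes of -1.10 in culture (SE 0.33) and -1.07 in tumours (SE 0.22) and edgeR adjusted p values of 0.0287 and 0.0204. Both calls were sensitive to single libraries. In culture Tns2 no longer passed when WT culture 1 (edgeR adjusted p = 0.146) or KO culture 2 (0.123) was left out, and in tumours when any 1 of WT tumour 1, WT tumour 2, KO tumour 1 or KO tumour 3 was left out (0.059 to 0.0722).

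Tns3, another large tensin (chromosome 11, 8431652 to 8664535), had 64.7 and 50.5 CPM in WT cultures and 54.6 and 39.9 CPM in KO cultures, which overlapped (log2 fold change -0.33, 95% interval -0.76 to 0.11). In tumours it had 144, 154 and 145 CPM in WT and 71.2 and 73.6 CPM in KO. These tumour groups were tight and well apart, and Tns3 fell there by 1.05 (SE 0.11, edgeR adjusted p = 0.00302). The difference between its 2 knockout effects was not called (-0.75, SE 0.24, edgeR adjusted p = 0.1).

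Summed per kilobase of exon, the 4 tensins came to 22.9 and 18.9 CPM per kb in WT and 9.76 and 6.68 in KO cultures, and to 48.6, 46.8 and 39.3 in WT and 14.5 and 16.8 in KO tumours. Tns4 made up 58.3% and 61.3% of this sum in WT and 31.3% and 26.8% in KO cultures, and 21.1% to 23.6% in WT and 3.59% and 3.74% in KO tumours. Total tensin transcript was thus lower in every KO library than in any WT library of its setting, and Tns3 was the largest part of it in all KO libraries and in WT tumours 2 and 3. The collagen transcript Col1a1 was also lower in both KO tumours (175 and 293 CPM) than in any WT tumour (542 to 1405 CPM). So was Col3a1 (74.7 and 114 CPM, against 181 to 640 CPM). The sum of the other 8 fibroblast and pericyte markers overlapped, but only through Rgs5, at 64.9 CPM in KO tumour 1. The overlap therefore does not show that the rest of these 8 were alike in the tumour groups. Among those 8, Lum (110, 55 and 168 counts in WT, 5 and 21 in KO) and Pdgfra (98, 65 and 232, and 2 and 34) were also lower in both KO tumours. Of all 10 markers 8 had a log2 fold change below 0 and 2 above 0 in KO tumours. Of these 10, 3 were called lower and none higher (30.0% called, against 19.7% of all genes tested). The epithelial marker sum was higher in both KO tumours, but of its 8 markers 3 were called higher and 2, Epcam and Sox9, lower (62.5% called, against 19.7% of all genes tested). The part of either kind of cell in the tumour values of the tensins was not tested. Within the WT tumours, tumour 3 had the highest sum of the 10 fibroblast and pericyte markers and the lowest Tns1, Tns2 and Tns4. Tns3 was lowest in WT tumour 1. These are 3 tumours, of which 1 and 2 were close by their counts, and the relation was not tested.

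**Figure D2:**
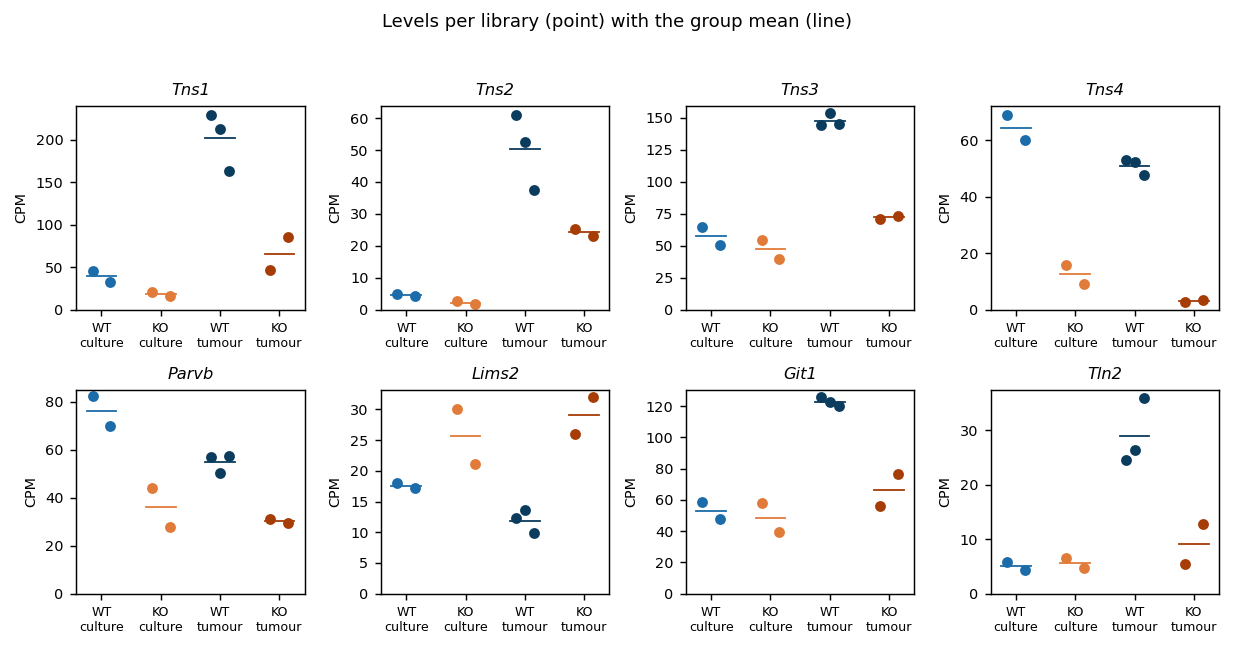
Levels in CPM (vertical axis, from 0) of the 4 tensins and of Parvb, Lims2, Git1 and Tln2 in each library (points), with the mean of each group (line). Tns4 in the KO tumours sits at 2.69 and 3.24 CPM, against 47.9 to 53.0 CPM in the WT tumours, while Lims2 is higher in both KO tumours.

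The stretches upstream of the RefSeq start sites of Tns1 and Tns3 (GRCm38.p6) are shown because these genes fell together in the tumours, and that of Parvb, described below, for the same reason. Each is written 5' to 3' on the gene's strand. None holds a CArG box, which is the binding site of serum response factor, a TEAD motif (GGAATG) or an AP-1 motif (TGACTCA or TGAGTCA) on either strand. GC made up 75.7%, 70.7% and 67.0% of the 300-base windows of Tns1, Tns3 and Parvb, against a median of 52.7% over all windows.
Tns1, chr1:74124549-74124748, minus strand: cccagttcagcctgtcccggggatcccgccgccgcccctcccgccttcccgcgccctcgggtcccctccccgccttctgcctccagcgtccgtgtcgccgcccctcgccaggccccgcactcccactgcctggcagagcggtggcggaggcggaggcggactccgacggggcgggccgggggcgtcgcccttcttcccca
Tns3, chr11:8664536-8664735, minus strand: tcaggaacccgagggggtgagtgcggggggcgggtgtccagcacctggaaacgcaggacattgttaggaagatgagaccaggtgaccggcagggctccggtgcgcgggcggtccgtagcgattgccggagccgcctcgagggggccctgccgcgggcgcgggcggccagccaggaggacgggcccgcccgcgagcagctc
Parvb, chr15:84231843-84232042, plus strand: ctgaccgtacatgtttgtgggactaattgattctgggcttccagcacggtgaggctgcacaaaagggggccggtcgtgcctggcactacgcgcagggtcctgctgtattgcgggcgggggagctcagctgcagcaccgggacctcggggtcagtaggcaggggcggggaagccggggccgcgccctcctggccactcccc

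Kindlins, talins and vinculin come next to the receptor. The kindlins bind the integrin beta tail and are needed for activation, with kindlin-1 (Fermt1) typical of epithelium, kindlin-2 (Fermt2) of mesenchyme and many other tissues, and kindlin-3 (Fermt3) of blood cells. In culture Fermt1 and Fermt2 moved in opposite directions. Fermt1 (chromosome 2, 132904389 to 132945906) had 194 and 169 CPM in WT and 340 and 310 CPM in KO cultures, and rose 1.74-fold (log2 fold change 0.80, SE 0.16, edgeR adjusted p = 0.00322). Fermt2 (chromosome 14, 45458795 to 45530118) had 6.38 and 6.46 CPM in WT cultures and 0 and 0.139 CPM in KO cultures. These are 200 counts in WT and 2 in KO, and KO stood at 0.00962 times the WT level (95% interval 0.00116 to 0.0352, for counting error only). The edgeR adjusted p was 6.4e-06. It passed the filter through its WT libraries.

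In tumours Fermt1 overlapped between the groups, with 272, 257 and 250 CPM in WT and 234 and 257 CPM in KO (log2 fold change -0.10, 95% interval -0.37 to 0.16). Fermt2 had 26.6, 29.7 and 23.8 CPM in WT tumours and 4.67 and 6.37 CPM in KO tumours, and fell 4.90-fold (log2 fold change -2.29, SE 0.21, edgeR adjusted p = 0.00198). Its KO tumour levels were thus near those of WT cultures and above those of KO cultures. Fibroblast and pericyte markers summed to 0.208 to 2.59 CPM over the cultures, against 355 and 499 CPM for the KO tumours, and their part in the Fermt2 values of tumours was not tested. Fermt3 was below 1 CPM in each culture, and in tumours it had 5.25, 6.33 and 9.14 CPM in WT and 4.73 and 11.9 CPM in KO. These overlapped (log2 fold change 0.25, 95% interval -0.78 to 1.27), and within each genotype the tumour with the most leukocyte marker RNA had the most Fermt3.

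As shares of the summed kindlin level per kilobase, Fermt2 made up 3.48% and 4.01% in WT and 0% and 0.0492% in KO cultures, and 9.17% to 11.0% in WT and 2.11% and 2.54% in KO tumours. Fermt1 was at least 86.9% of the kindlin transcript in every library. The sequences upstream of Fermt1 and Fermt2 are shown because the genes moved in opposite directions in culture. Both are from RefSeq on GRCm38.p6, written 5' to 3' on the minus strand, and capitals mark a CArG box.
Fermt1, chr2:132946037-132946236, minus strand: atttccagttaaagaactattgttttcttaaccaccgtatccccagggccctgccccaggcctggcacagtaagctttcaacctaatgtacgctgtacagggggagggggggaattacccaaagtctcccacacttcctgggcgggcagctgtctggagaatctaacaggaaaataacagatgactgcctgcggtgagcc
Fermt2, chr14:45530119-45530315, minus strand: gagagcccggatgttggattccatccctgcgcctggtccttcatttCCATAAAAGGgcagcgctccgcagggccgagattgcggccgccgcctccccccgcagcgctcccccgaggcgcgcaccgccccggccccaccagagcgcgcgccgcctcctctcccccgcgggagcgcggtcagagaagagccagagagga
The searched windows ran from 250 bases before to 50 bases after a RefSeq start, and 38 windows were found for 28 of the 35 genes. A CArG box was in 3 of the 38, those of Fermt2, Rsu1 and Vcl, and in 1.63% of all 32851 windows. TEAD motifs were in 4 (Actn4, Flna, Lpp and Vcl) against 14.7% of all windows, and an AP-1 motif in 1 (Zyx) against 5.20%. The Fermt1 window had a GC share of 53.0% and that of Fermt2 one of 76.7%. A match is a description of letters only, and none of the tests bears on the factors.

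Tln1, the main talin, was at 173 and 124 CPM in WT and 202 and 124 CPM in KO cultures, and at 296, 265 and 320 CPM in WT and 370 and 352 CPM in KO tumours. It was not called in either setting (95% intervals of the log2 fold change -0.41 to 0.59 and -0.02 to 0.58). Tln2, the second talin, best known from muscle and brain (chromosome 9, 67217087 to 67559703), had 5.81 and 4.37 CPM in WT and 6.56 and 4.65 CPM in KO cultures, which overlapped. In tumours it had 24.6, 26.4 and 35.9 CPM in WT and 5.49 and 12.9 CPM in KO, with no overlap. Tln2 fell there 3.21-fold (log2 fold change -1.68, SE 0.37, edgeR adjusted p = 0.0235). It no longer passed when WT tumour 1, 2 or 3 was left out (edgeR adjusted p = 0.0572 to 0.069). Skeletal muscle markers, 6 genes, summed to 18.5, 22.7 and 126 CPM in WT and to 57.9 and 11.7 CPM in KO tumours, and their part in the Tln2 values was not tested. WT tumour 3 had the most of these markers and the most Tln2, while of the KO tumours the one with more of them had less Tln2. Vinculin (Vcl), which ties talin to actin, had 164, 177 and 124 CPM in WT and 94.3 and 123 CPM in KO tumours, and did not pass (log2 fold change -0.53, edgeR adjusted p = 0.1). In culture it overlapped between the groups (-0.16, 95% interval -0.57 to 0.24).

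The complex of ILK, PINCH and parvin holds 1 of each and binds the integrin tail region and actin. Its parvins differed in make-up between the genotypes. Parvb, beta-parvin (chromosome 15, 84232043 to 84315688), had 82.3 and 69.9 CPM in WT and 44.3 and 27.9 CPM in KO cultures, and 57.1, 50.1 and 57.5 CPM in WT and 31.3 and 29.5 CPM in KO tumours. All KO libraries were below all WT libraries of their setting. Parvb fell in both settings, with a log2 fold change of -1.12 in culture (SE 0.22, edgeR adjusted p = 0.00225) and -0.87 in tumours (SE 0.13, edgeR adjusted p = 0.00777).

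Parva, alpha-parvin (chromosome 7, 112427505 to 112591692), had 70.9 and 60.3 CPM in WT and 112 and 96.4 CPM in KO cultures, and rose 1.54-fold (log2 fold change 0.63, SE 0.17, edgeR adjusted p = 0.0164). It no longer passed when WT culture 2 (edgeR adjusted p = 0.173) or KO culture 1 (0.15) was left out. In tumours Parva had 133, 137 and 136 CPM in WT and 187 and 143 CPM in KO and was not called (log2 fold change 0.27, 95% interval -0.08 to 0.63). As shares of the parvin sum per kilobase, Parvb made up 72.1% and 72.0% in WT cultures and 47.3% and 39.8% in KO cultures, and 44.8% to 48.0% in WT tumours and 27.0% and 29.6% in KO tumours. Parva was the larger part in all 4 KO libraries and also in the 3 WT tumours, where it made up 48.6% to 53.1% against 62.4% and 70.3% in KO tumours. Parvg, the parvin of blood cells, was below 1 CPM in culture, and in tumours had 2.72, 1.61 and 3.49 CPM in WT and 2.22 and 5.62 CPM in KO, which overlapped.

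Among the PINCH adaptors, Lims2 (PINCH-2) was the 1 member called higher in tumours, from 12.2, 13.6 and 9.82 CPM in WT to 26.0 and 32.1 CPM in KO. Both KO tumours lay above all WT tumours (log2 fold change 1.27, SE 0.19, edgeR adjusted p = 0.00833). In culture Lims2 had 17.9 and 17.2 CPM in WT and 30.1 and 21.1 CPM in KO, also without overlap, but did not pass (0.50, edgeR adjusted p = 0.102). Its share of the PINCH sum per kilobase was 14.2% to 17.8% in WT tumours and 34.0% and 33.0% in KO tumours. Lims1 (PINCH-1), the larger part, overlapped in both settings, with 95% intervals of -0.46 to 0.21 and -0.41 to 0.26. Ilk, the scaffold of the complex, had 32.5 and 40.1 CPM in WT and 27.1 and 29.5 CPM in KO cultures and did not pass (log2 fold change -0.40, edgeR adjusted p = 0.123), and it overlapped in tumours. Rsu1, which binds PINCH-1, was not called in either setting (-0.12, 95% interval -0.55 to 0.31, and 0.21, 95% interval -0.10 to 0.52).

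**Figure D3:**
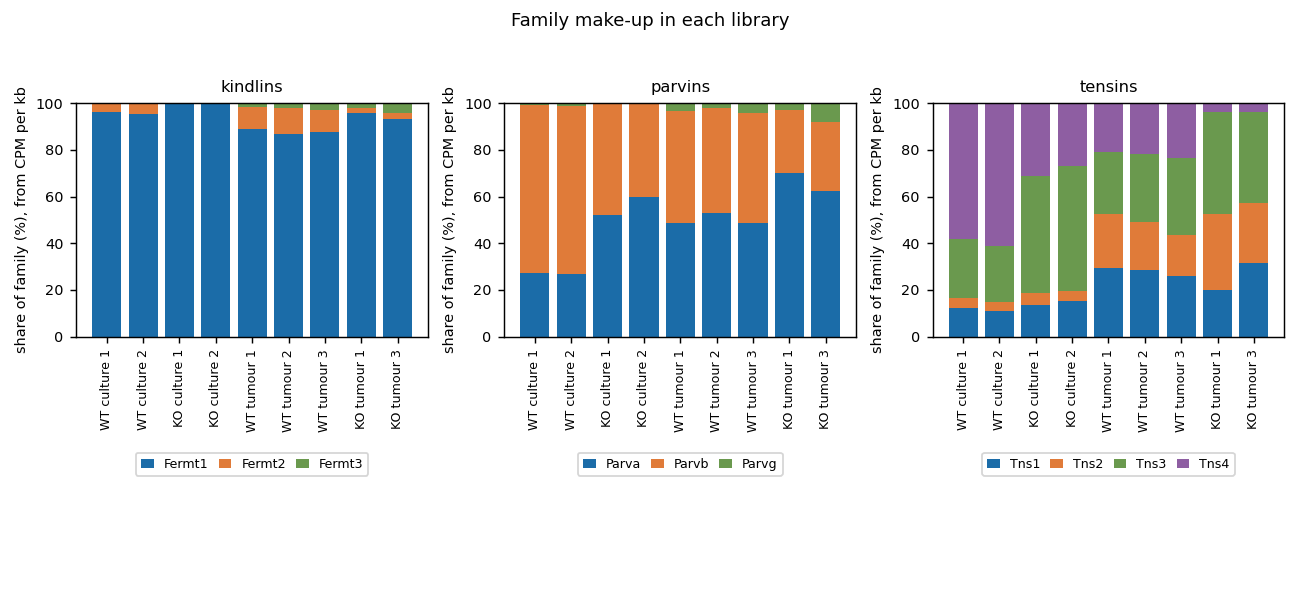
Share of each family member in the summed level of its family (vertical axis, percent, from CPM per kb of exon) in each of the 9 libraries, for kindlins, parvins and tensins. Parvb is larger than Parva in WT cultures and smaller than Parva in all tumours and KO cultures, by little in WT tumour 1 (48.0% against 48.7%). Parvg is the smallest parvin in every library. Tns4 shrinks to 3.59% and 3.74% of the tensins in KO tumours.

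Of the 4 kinases Fyn, a Src-family kinase (chromosome 10, 39368855 to 39565381), was called in culture. None was called in tumours by edgeR, DESeq2 or limma-voom, and 0 had an unadjusted edgeR p below 0.05 there. Fyn had 17.6 and 15.7 CPM in WT cultures and 2.45 and 1.74 CPM in KO cultures, with no overlap. That was an 8.07-fold fall (log2 fold change -3.01, SE 0.27, edgeR adjusted p = 5.27e-06). In tumours it had 10.8, 10.1 and 13.3 CPM in WT and 6.60 and 14.4 CPM in KO, which overlapped (-0.14, 95% interval -0.95 to 0.66). The KO tumour with 14.4 CPM of Fyn also had the highest leukocyte marker sum, 369 CPM, and the other had 233 CPM. In the KO cultures that sum was 12.3 and 12.6 CPM. The part of leukocytes in the tumour values was not tested. The genes of FAK (Ptk2), Pyk2 (Ptk2b) and Src were not called in either setting in the main test. A replicate block in culture, described below, called Src and Ptk2b (edgeR adjusted p = 1.31e-06 and 0.00452). For Ptk2 the 95% interval of the log2 fold change was -0.25 to 0.46 in culture and -0.35 to 0.20 in tumours. For Src it was -0.03 to 0.81 and -0.17 to 0.43, and both KO cultures (182 and 127 CPM) were above both WT cultures (125 and 103 CPM).

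**Figure D4:**
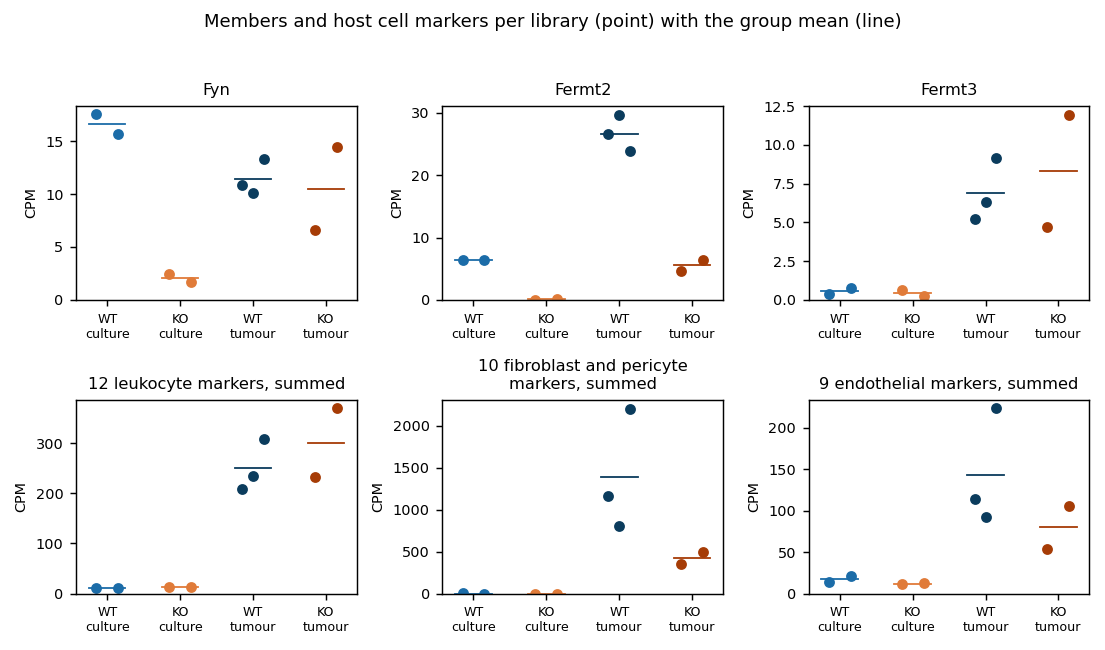
Levels in CPM (vertical axes, from 0) of Fyn, Fermt2 and Fermt3 and the summed levels of leukocyte, fibroblast and pericyte, and endothelial markers in each library (points), with group means (lines). Each marker sum is lower in every culture (at most 21.8 CPM) than in every tumour, and Fyn is lowest in the KO cultures.

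Among the scaffolds and signalling adaptors, Cav1, caveolin-1, the coat protein of caveolae and a Src substrate (chromosome 6, 17306335 to 17341452), rose in culture from 157 and 131 CPM in WT to 315 and 251 CPM in KO. Both KO cultures were higher (1.91-fold, log2 fold change 0.93, SE 0.18, edgeR adjusted p = 0.00196). In tumours it had 25.8, 26.4 and 44.3 CPM in WT and 43.0 and 61.8 CPM in KO and was not called (0.68, edgeR adjusted p = 0.1253). WT tumour 3, the highest WT library for Cav1, also had the highest endothelial (223 CPM), fibroblast and pericyte (2202 CPM) and muscle (126 CPM) marker sums. In the KO tumours, with more Cav1 than WT tumours 1 and 2, the endothelial sums were 53.7 and 106 CPM, and the part of these cells in the Cav1 values was not tested. With WT tumour 3 left out Cav1 passed (edgeR adjusted p = 0.0359). Git1, the GTPase-activating adaptor that binds paxillin (chromosome 11, 77493562 to 77507786), had 126, 123 and 120 CPM in WT tumours and 56.2 and 76.5 CPM in KO tumours. It fell by 0.91 there (SE 0.15, edgeR adjusted p = 0.0105), but no longer passed with WT tumour 2 left out (0.0507). In culture Git1 had 58.6 and 47.8 CPM in WT and 57.9 and 39.3 CPM in KO, which overlapped.

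The partner of Git1 in paxillin complexes, Arhgef7 (beta-PIX), was not called (95% intervals -0.43 to 0.40 in culture and -0.19 to 0.32 in tumours). Paxillin (Pxn) and p130Cas (Bcar1), the main docking proteins of the FAK and Src pathway, also gave no call. Their intervals were -0.52 to 0.37 and -0.49 to 0.21 in culture and -0.15 to 0.36 and -0.38 to 0.32 in tumours. Nedd9, a relative of p130Cas, and the adaptors Crk and Crkl, which bind both, did not pass in either setting. In tumours Nedd9 (log2 fold change -0.49, edgeR adjusted p = 0.132) and Crkl (-0.47, edgeR adjusted p = 0.0831) were lower in both KO libraries than in any WT library, and Crk was higher (0.36, edgeR adjusted p = 0.14).

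None of the 6 actin-linked proteins passed in either setting in the main edgeR test. With a replicate block in culture, described below, edgeR called 5 of the 6. In the main test 1 in culture (Vasp) and 3 in tumours (Actn4, Zyx and Vasp) had an unadjusted p below 0.05, and limma-voom called none. DESeq2 called Vasp in culture (adjusted p = 0.0471) and Actn4 in tumours (adjusted p = 0.0139), and edgeR called Zyx in tumours with KO tumour 3 left out (adjusted p = 0.0184). In culture their log2 fold changes ran from 0.13 for Actn1 to 0.41 for Vasp. In 4 of the 6 (Actn4, Flna, Vasp and Lpp) both KO libraries were above both WT libraries, and 62.0% of all genes tested did not overlap there. In tumours they ran from -0.43 for zyxin (Zyx, edgeR adjusted p = 0.0894) to 0.35 for alpha-actinin-4 (Actn4, edgeR adjusted p = 0.065). Actn4 had 330, 337 and 362 CPM in WT and 444 and 444 CPM in KO tumours, and Zyx had 69.5, 72.8 and 70.3 CPM in WT and 45.2 and 61.8 CPM in KO tumours. None of the 6 genes overlapped between the tumour groups, and 53.7% of all genes tested did not. For Flna the 95% interval was -0.16 to 0.63 in culture and -0.52 to 0.12 in tumours.

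Whether the knockout effect differed between settings was tested as the effect in tumours minus the effect in culture. Of the 35 genes 4 passed (11.4%), against 5.69% of the 16793 genes tested, Fyn and Fermt2 with a higher value in tumours (against 4.15% of all genes) and Tns4 and Fermt1 with a lower one (against 1.54%). For Fyn the difference was 2.86 (SE 0.48, edgeR adjusted p = 0.00708) and for Fermt2 4.27 (SE 0.68, edgeR adjusted p = 0.00575). The Fermt2 value rests on 2 counts in KO cultures and depends on the prior count, so its size is no bound. For Tns4 it was -1.75 (SE 0.32, edgeR adjusted p = 0.0107), lost with WT culture 2 left out (0.0684), and for Fermt1 it was -0.92 (SE 0.19, edgeR adjusted p = 0.0182), lost when any 1 of WT culture 2, KO culture 1, WT tumour 1, WT tumour 2 or KO tumour 1 was left out (0.0511 to 0.101). Tln2 was just outside, at -1.80 (SE 0.51, edgeR adjusted p = 0.0639). For Parvb, Tns1 and Tns2, called in both settings, the differences were 0.22 (95% interval -0.39 to 0.83), -0.55 (-1.40 to 0.30) and 0.01 (-0.66 to 0.67).

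Most of the genes also differed between tumours and cultures of the same line. In WT 26 of 35 were called (74.3%, against 65.7% of all genes tested), 20 of them higher in tumours and 6 lower (against 36.1% and 29.6% of all genes). In KO 23 were called (65.7%, against 59.3%), 16 higher and 7 lower (against 32.9% and 26.4%). What is due to growth in the animal, to host cells and to the batch cannot be told apart here. Scaling by library totals moved the median of all genes by 0.47 in WT and 0.43 in KO on the log2 scale, and the share of all calls that were higher from 54.9% to 72.7% and from 55.5% to 74.4%. Under all 3 scalings 20 genes stayed higher and 3 lower (Cav1, Crk and Ilk) in WT, and 16 higher and 2 lower (Cav1 and Tns4) in KO. Without WT culture 2, 17 genes were called in WT in place of 26.

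In WT the largest rises were those of Fermt3, Tns2 and Tln2, and in KO those of Fermt2, which starts from 2 culture counts, Fermt3 and Parvg. Tns2 was 3.44 higher in WT tumours than in WT cultures (SE 0.26, edgeR adjusted p = 3.56e-06) and 3.44 higher in KO (SE 0.29, edgeR adjusted p = 7.23e-06). Fermt3 was 3.56 and 4.08 higher (SE 0.57 and 0.61) and Parvg 1.88 and 3.80 higher (SE 0.54 and 0.64). Both are known from blood cells, and the leukocyte marker sum went from 12.1 to 12.6 CPM in cultures to 208 to 369 CPM in tumours, a part that was not tested. Tns1 was higher by 2.37 and 1.81, Ptk2b by 1.46 and 1.98, Lpp, a zyxin relative, by 1.51 and 1.37, and Vcl by 1.35 and 0.96. Tln2 was 2.51 higher in WT (SE 0.36, edgeR adjusted p = 0.000138) and was not called in KO (0.71, edgeR adjusted p = 0.122). Cav1 was lower in tumours than in cultures, with log2 fold changes of -2.16 in WT (SE 0.24, edgeR adjusted p = 2.72e-05) and -2.43 in KO (SE 0.28, edgeR adjusted p = 4.41e-05). Tns4 fell by 2.08 in KO (SE 0.26, edgeR adjusted p = 6.55e-05), while in WT it was at -0.33 (edgeR adjusted p = 0.145).

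**Figure D5:**
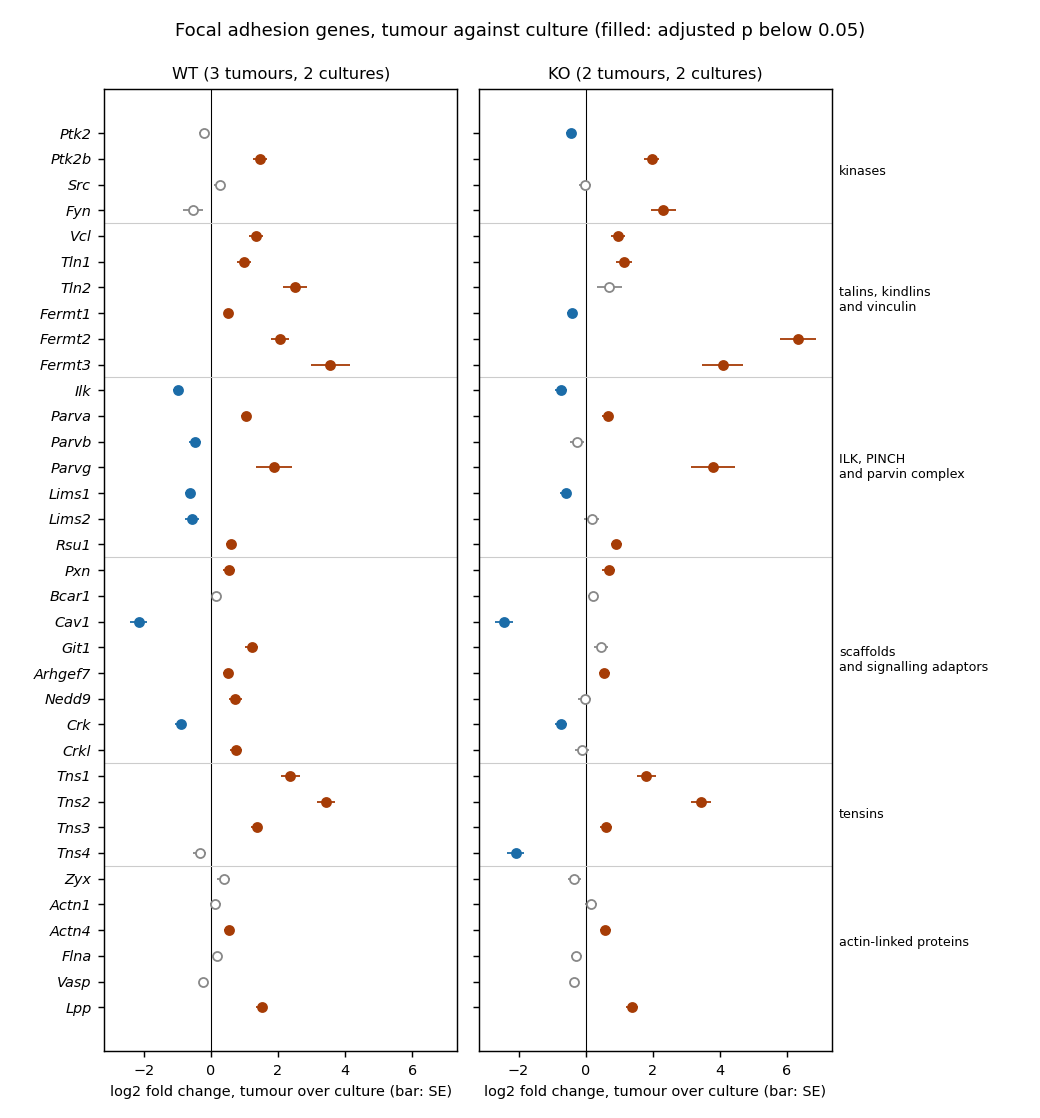
Log2 fold change of tumour over culture (horizontal axis, bars are the SE) for the 35 genes in WT (left, 3 tumours and 2 cultures) and in KO (right, 2 tumours and 2 cultures), with filled points for adjusted p below 0.05 with edgeR. Most filled points lie to the right of 0, and Cav1 lies far to the left in both lines.

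Other genes of adhesion sites were mixed. Of a list of 64 further adhesion-site proteins, 57 were tested in culture, with 9 higher and 10 lower, and 63 in tumours, with 7 higher and 6 lower (33.3% and 20.6% called, against 25.5% and 19.7% of all genes). Layn, the hyaluronan receptor layilin that binds talin, had 20.97 and 27.5 CPM in WT and 4.34 and 5.21 CPM in KO cultures, and fell in both settings (log2 fold change -2.39 and -2.47, edgeR adjusted p = 1.13e-05 and 0.00406). Enah, an Ena/VASP actin regulator related to Vasp, fell by 2.38 in tumours (SE 0.17, edgeR adjusted p = 0.00109), from 102, 111 and 82.3 CPM in WT to 18.5 and 19.8 CPM in KO. In culture Sorbs2, an adaptor of the vinexin family, rose by 1.26 (edgeR adjusted p = 0.000278), and Kank1, which binds talin at the rim of adhesions, fell by 1.42 (edgeR adjusted p = 0.000483). In tumours Ablim1, an actin-binding LIM protein, rose by 1.06 and Bcar3, which binds p130Cas, by 1.21 (edgeR adjusted p = 0.00434 and 0.00831).

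Among 30 genes of actin stress fibres and contractility, 22 were tested in culture, with none higher and 5 lower, and 30 in tumours, with 3 higher and 7 lower (22.7% and 33.3% called, against the same 25.5% and 19.7%). Cnn3, calponin-3, an actin-binding protein of stress fibres, had 159 and 164 CPM in WT and 2.67 and 3.26 CPM in KO cultures, and 123, 145 and 155 CPM in WT and 13.5 and 9.45 CPM in KO tumours. Its log2 fold change was -5.81 in culture and -3.64 in tumours (edgeR adjusted p = 1.61e-08 and 0.000763). That of Myh10, non-muscle myosin IIB, was -1.49 and -1.31 (edgeR adjusted p = 0.00334 and 0.0192).

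The caveolar genes, partners of Cav1, split. Of 9 listed 7 were tested, with 2 higher and 2 lower in culture and 2 higher and 1 lower in tumours. That is 57.1% and 42.9% called, against 25.5% and 19.7% of all genes. Cav2, caveolin-2, which forms oligomers with caveolin-1, had 622 and 823 CPM in WT and 1041 and 1197 CPM in KO cultures, and rose by 0.59 in culture and by 1.31 in tumours (edgeR adjusted p = 0.0388 and 0.00415). Cavin2 rose by 1.03 and 1.42, and Cavin1, the coat protein needed for caveolae to form, fell (log2 fold change -1.08 and -0.61, edgeR adjusted p = 0.00053 and 0.0145). Of 8 integrin beta chains 7 were tested, with none higher and 2 lower in culture and 1 higher and 3 lower in tumours. That is 28.6% and 57.1% called, against the same shares of all genes. Itgb1, the partner of the alpha 2 chain, had 979 and 1031 CPM in WT and 726 and 863 CPM in KO cultures and did not pass there (-0.38, edgeR adjusted p = 0.139). In tumours it was called lower (log2 fold change -0.54, SE 0.12, edgeR adjusted p = 0.0266), and Itgb4 fell by 0.98 while Itgb6 rose by 1.55 (edgeR adjusted p = 0.0236 and 0.0436).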

How the data were processed

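Poly(A) RNA of 9 libraries was sequenced with unique molecular identifiers, by which the authors dropped duplicates, and ERCC control RNA had been added, per the labels' protocols. Per the submitters' processing notes, the tools used on GRCm38 included STAR 2.5.2b and fastp 0.23.1, Subread 1.5.2, DESeq2 and featureCounts. How multi-mapping reads were handled was not given in the sources used here, nor was the strand setting or the annotation release. Raw counts per gene, as deposited by the authors, were used in all tests. The deposited normalized tables hold a signal equal to the count divided by 1 size factor per library, and the deposited rlog tables hold shrunken log2 values. Neither was tested.

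Genes were filtered with filterByExpr (minimum count 10, minimum total 15), with TMM scaling, and tested by the edgeR 4.0.16 quasi-likelihood test (R 4.3.3), with Benjamini-Hochberg adjustment over all genes and a threshold of 0.05. KO was compared with WT within the 4 cultures and within the 5 tumours, and the other contrasts used all 9 libraries. CPM are scaled by TMM over all 9 libraries, fold changes use a prior count of 0.125, and log2 folds of different comparisons come from their own scaling. SE is the log2 fold change over the square root of F. Total counts of 16032912 to 21247023 set the counting precision. Labels call replicates biological, and p-values measure the spread between these samples. The second KO tumour column is numbered 3 and was assigned to its group only. Alternatives were scaling by RLE or library totals, other filters, DESeq2 1.42.0, limma-voom (limma 3.58.1), a fold of 1.5, a replicate block, other sets of libraries and each library left out. Summing WT tumours 1 and 2 was added after seeing the data. The 35 genes and all lists were chosen with earlier results of these data known. All 35 may be named, Itga2 first, and from each further list up to 4 genes with the smallest p in a comparison, and promoters could be shown for at most 6 members with the smallest adjusted p or of 1 family moving in opposite directions. The 5 shown were picked among these after their values were seen. The tests were also run on counts simulated with 1 common spread for all genes and no host cells. Real libraries differ from that, so the check does not show how the tests behave on these data.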

Additional observations from a re-analysis of the deposited data

Results flagged for a closer look

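The effect of the knockout differed between tumours and culture, by a test of the difference itself in edgeR, for 4 of the 35 genes (11.4%, against 5.69% of the 16793 genes tested). For Fyn the difference on the log2 scale was 2.86, and for Fermt2 it was 4.27, a value that rests on 2 counts in the KO cultures. For Tns4 it was -1.75, no longer past the threshold with WT culture 2 left out (edgeR adjusted p = 0.0684). For Fermt1 it was -0.92, no longer past it with any 1 of 5 libraries left out (up to 0.101). Fyn had 2.45 and 1.74 CPM in KO cultures and 6.60 and 14.4 CPM in KO tumours. Tns4 went the other way, from 15.8 and 9.24 CPM to 2.69 and 3.24 CPM. The KO tumour with 14.4 CPM of Fyn also had the highest leukocyte marker sum, 369 CPM. Tumour libraries hold host cells, and their part in these differences was not tested. Each genotype is 1 line, so these are differences between lines.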

How the results depend on the processing

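Scaling, filtering, other test tools and the other sets of libraries changed few calls for KO against WT. With a replicate block in culture 22 of the 35 genes were called in place of 9 (5 of the 6 actin-linked proteins among them), and 3689 genes higher and 3898 lower of 13573 tested. The block added Src, Ptk2b, Tns3, Ilk, Lims2, Nedd9, Crk, Crkl, Zyx, Actn4, Flna, Vasp and Lpp to the calls (edgeR adjusted p from 4.92e-08 to 0.0345). Same-numbered cultures deviated together (correlation 0.55 over 13573 genes). There are only 2 pairs and the labels tie no numbers together, so what same-numbered cultures share is not known. The culture results that were not called depend on leaving the block out for the genes it added. No paired analysis was possible because KO and WT tumour columns share fewer than 2 numbers that the labels bear out. For the difference between settings 7 genes were called without a filter on low counts, and leaving out single libraries gave 2 to 6. Tumour against culture in WT gave 17 to 27 with single libraries left out, KO against WT in culture 8 to 9, in tumours 6 to 12, and tumour against culture in KO 18 to 23. Over all genes the same settings gave 1171 to 4143 calls for KO against WT in tumours (3206 with all libraries) and 8045 to 11864 for tumour against culture in WT (11032). Scaling by library totals reversed the sign of Parvb in WT tumours against cultures (0.000984) and of Ptk2 (0.00482) and Fermt1 (0.027) in KO, moves of 0.47, 0.43 and 0.43 on the log2 scale, which is how far this scaling moved the median of all genes (0.47 in WT and 0.43 in KO). With WT tumours 1 and 2 summed, Tln2 (edgeR adjusted p = 0.0602) and Tns2 (0.0624) lost their tumour calls and 7 of 35 remained called, and Fermt1 lost the difference (0.0503). DESeq2 gave an adjusted p of 0.0508 for Tns2 in culture. With 2 libraries in most groups and few counts for Fermt2, Fermt3 and Parvg in culture, small changes in these genes were not detectable.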
